A study of Rattus norvegicus with 9 samples.

Results

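The immediate early genes examined here were Fos, Fosb, Jun, Junb, Jund, Egr1, Atf3, Ier2, Zfp36 and Dusp1, a set of 10 genes of the rapid transcriptional response. They were taken by gene symbol from a kidney expression table of 19367 genes, and each symbol occurred once. The table's gene identifiers are 314322 for Fos, 100360880 for Fosb, 24516 for Jun, 24517 for Junb, 24518 for Jund, 24330 for Egr1, 25389 for Atf3, 494344 for Ier2, 79426 for Zfp36 and 114856 for Dusp1. Levels are in FPKM, which counts sequenced fragments per unit of transcript length and of library size. Of the 10 genes, 9 had an FPKM of 1 or more in 3 or more of the 9 libraries and were tested. Fosb reached that level in 2 libraries and is described by its values.

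Immediate early genes are transcribed within minutes of a stimulus without the need for newly made protein, because the factors that switch them on are already present and are activated by kinases. FOS and JUN proteins pair through leucine zippers to form the transcription factor AP-1, EGR1 binds GC-rich sites through zinc fingers, and ZFP36 and DUSP1 end the response, the first by speeding decay of messages with AU-rich elements and the second by dephosphorylating MAP kinases. In the kidney these genes are known to respond to growth factors, angiotensin II and ischaemia.

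The libraries came from rat kidney tissue, in 3 groups of 3. The first group was SHR (spontaneously hypertensive rats, an inbred strain with high blood pressure) given dapagliflozin, an inhibitor of the kidney glucose carrier SGLT2, by mouth at 10 mg/kg per day over 8 weeks. The second was untreated SHR and the third untreated WKY (Wistar-Kyoto rats, the normotensive control strain), both given water per the labels' protocol, although the labels' treatment field reads saline. The rats were 3 months old when the study began, and no transgene or deletion is named for any group. The strain field of the labels reads Wistar-Kyoto in every sample, so groups follow the sample titles. The labels do not tie each library to a rat, so the p-values reflect only how these libraries spread, which may be partly technical.

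FPKM sums lay between 563643 and 589838 per library. Read totals are not given. For low values of genes seen in few libraries, the median ratio to WKY library 1 was at most 1.09. Ratios far from even were left out beforehand, so a large difference in depth could not have appeared. The kidney label was matched by its defining transcripts: the 10 proximal tubule markers summed to 3066 to 5862 FPKM in treated SHR, 7182 to 7760 in untreated SHR and 5932 to 7517 in WKY. The 5 collecting duct principal cell markers summed to 1061 to 1934 FPKM in treated SHR, 766 to 895 in untreated SHR and 322 to 600 in WKY, with no overlap between the 3 groups. In such bulk tissue, fewer cells of a type and less RNA per cell cannot be told apart.

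The proximal promoters of 7 of the 10 genes were found in RefSeq (build GRCr8), and the 250 bases before the annotated start of 5 of them are printed below. Egr1, Ier2 and Junb are shown because their transcripts varied together across libraries, Jund because it varied least, and Zfp36 because it was the gene with lower levels in all treated than in all untreated SHR libraries. Treated SHR lay wholly below untreated SHR for 6.44% of all genes tested and wholly above for 12.6%. Capitals mark CArG boxes, the sites of serum response factor, and the core TGACG of the cyclic AMP response element (CRE) on either strand.
Egr1 (chr18:26736828-26737077, plus strand): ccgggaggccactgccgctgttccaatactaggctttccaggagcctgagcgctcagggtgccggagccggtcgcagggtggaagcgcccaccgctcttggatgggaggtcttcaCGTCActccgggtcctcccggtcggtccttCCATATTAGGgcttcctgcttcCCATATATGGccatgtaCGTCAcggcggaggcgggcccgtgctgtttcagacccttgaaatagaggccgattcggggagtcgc
Ier2 (chr19:40399123-40399372, plus strand): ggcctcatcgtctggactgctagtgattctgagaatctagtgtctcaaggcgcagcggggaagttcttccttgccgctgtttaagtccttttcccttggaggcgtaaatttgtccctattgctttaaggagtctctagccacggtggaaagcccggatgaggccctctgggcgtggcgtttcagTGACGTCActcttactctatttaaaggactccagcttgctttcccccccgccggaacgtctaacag
Junb (chr19:40080876-40081125, plus strand): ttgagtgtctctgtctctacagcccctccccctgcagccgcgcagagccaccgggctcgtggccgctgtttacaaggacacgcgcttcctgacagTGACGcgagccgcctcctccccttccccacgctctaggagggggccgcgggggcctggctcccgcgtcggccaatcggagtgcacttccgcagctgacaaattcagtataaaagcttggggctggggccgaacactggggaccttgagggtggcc
Jund (chr16:18769772-18770021, minus strand): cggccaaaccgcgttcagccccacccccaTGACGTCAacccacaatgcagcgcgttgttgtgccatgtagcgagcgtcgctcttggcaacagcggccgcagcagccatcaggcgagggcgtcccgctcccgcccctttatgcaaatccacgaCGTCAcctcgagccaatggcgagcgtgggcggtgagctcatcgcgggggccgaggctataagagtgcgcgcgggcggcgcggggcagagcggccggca
Zfp36 (chr1:92799109-92799358, minus strand): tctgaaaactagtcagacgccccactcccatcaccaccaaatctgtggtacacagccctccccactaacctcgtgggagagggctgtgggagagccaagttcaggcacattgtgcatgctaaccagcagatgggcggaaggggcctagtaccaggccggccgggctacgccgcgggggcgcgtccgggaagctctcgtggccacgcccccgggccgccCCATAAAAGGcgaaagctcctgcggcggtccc

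The CArG box was searched by its usual consensus on both strands. Egr1 held 2 such boxes, the first bases of which lay 105 and 83 bases before the start, and Zfp36 held 1, at 32 bases. The box occurred in 1.21% of the 10315 tested genes with a promoter window of the same length. The full palindromic CRE, TGACGTCA, which contains 2 overlapping copies of the core TGACG, lay 66 bases before the start of Ier2 and 221 bases before that of Jund, and it also occurred once in Dusp1, at 124 bases. It occurred in 2.77% of the tested genes' windows. The core alone, on either strand, occurred in 5 of the 7 promoters (Junb, Jund, Egr1, Ier2 and Dusp1) and in 27.7% of the tested genes' windows. The AP-1 site TGANTCA was in 0 of the 7 windows and in 4.35% of the tested genes' windows, and the EGR site GCGNGGGCG, on either strand, was in Jund and Zfp36 and in 8.5% of the windows. These are matches of letters and not measured binding.

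Fos showed the widest swing of the set. Fos, the founding member of AP-1, measured 15.0, 9.58 and 18.5 FPKM in treated SHR libraries 1 to 3, 29.9, 52.9 and 2.86 FPKM in untreated SHR libraries 1 to 3, and 1.87, 7.0 and 2.29 FPKM in WKY libraries 1 to 3. Untreated SHR libraries 1 and 2 were high and untreated SHR library 3 lay within the WKY range, whereas all 3 treated libraries lay above all WKY libraries. The highest library had 28.3 times the level of the lowest.

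The mean was 14.4 ± 4.49 FPKM in treated SHR, 28.5 ± 25.0 in untreated SHR and 3.72 ± 2.85 in WKY (SD, n = 3 each). The log2 change of untreated SHR against WKY was 2.14 (SE 0.86, adjusted p = 0.225 in limma with Benjamini-Hochberg adjustment), and that of treated SHR against WKY was 1.82 (SE 0.86, adjusted p = 0.149 in limma). Against untreated SHR, the treated group differed by -0.32 (SE 0.86, adjusted p = 0.877 in limma). None of the 3 passed, and the exact permutation test over the 3 groups gave p = 0.164. The calls depended on the setting. Without untreated SHR library 3, Fos passed in untreated SHR against WKY (log2 change 3.27, adjusted p = 0.0202 in limma) and in treated SHR against WKY (1.82, adjusted p = 0.0298). With all 9 libraries kept, it passed with array weights in both (adjusted p = 0.0123 and 0.0131 in limma) and, when only the 2 groups were fitted, in treated SHR against WKY (adjusted p = 0.0496). Array weights called 29.8% and 67.1% of all genes in these 2 comparisons, and fitting only the 2 groups called 7.82% in the latter. Over all alternatives the highest adjusted p was 0.477 in untreated SHR against WKY and 0.327 in treated SHR against WKY.

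Fosb, a FOS relative that also pairs with JUN proteins, followed the same libraries at far lower levels. It measured 0.62, 0.49 and 0.80 FPKM in treated SHR, 1.26, 1.76 and 0.19 in untreated SHR, and 0.22, 0.15 and 0.18 in WKY. All treated libraries again lay above all WKY libraries, and untreated SHR library 3 again lay among the WKY libraries. The exact permutation test over the 3 groups gave p = 0.132, and with no filter on low values Fosb did not pass in any comparison (smallest adjusted p = 0.232 in limma, untreated SHR against WKY).

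**Figure D1:**
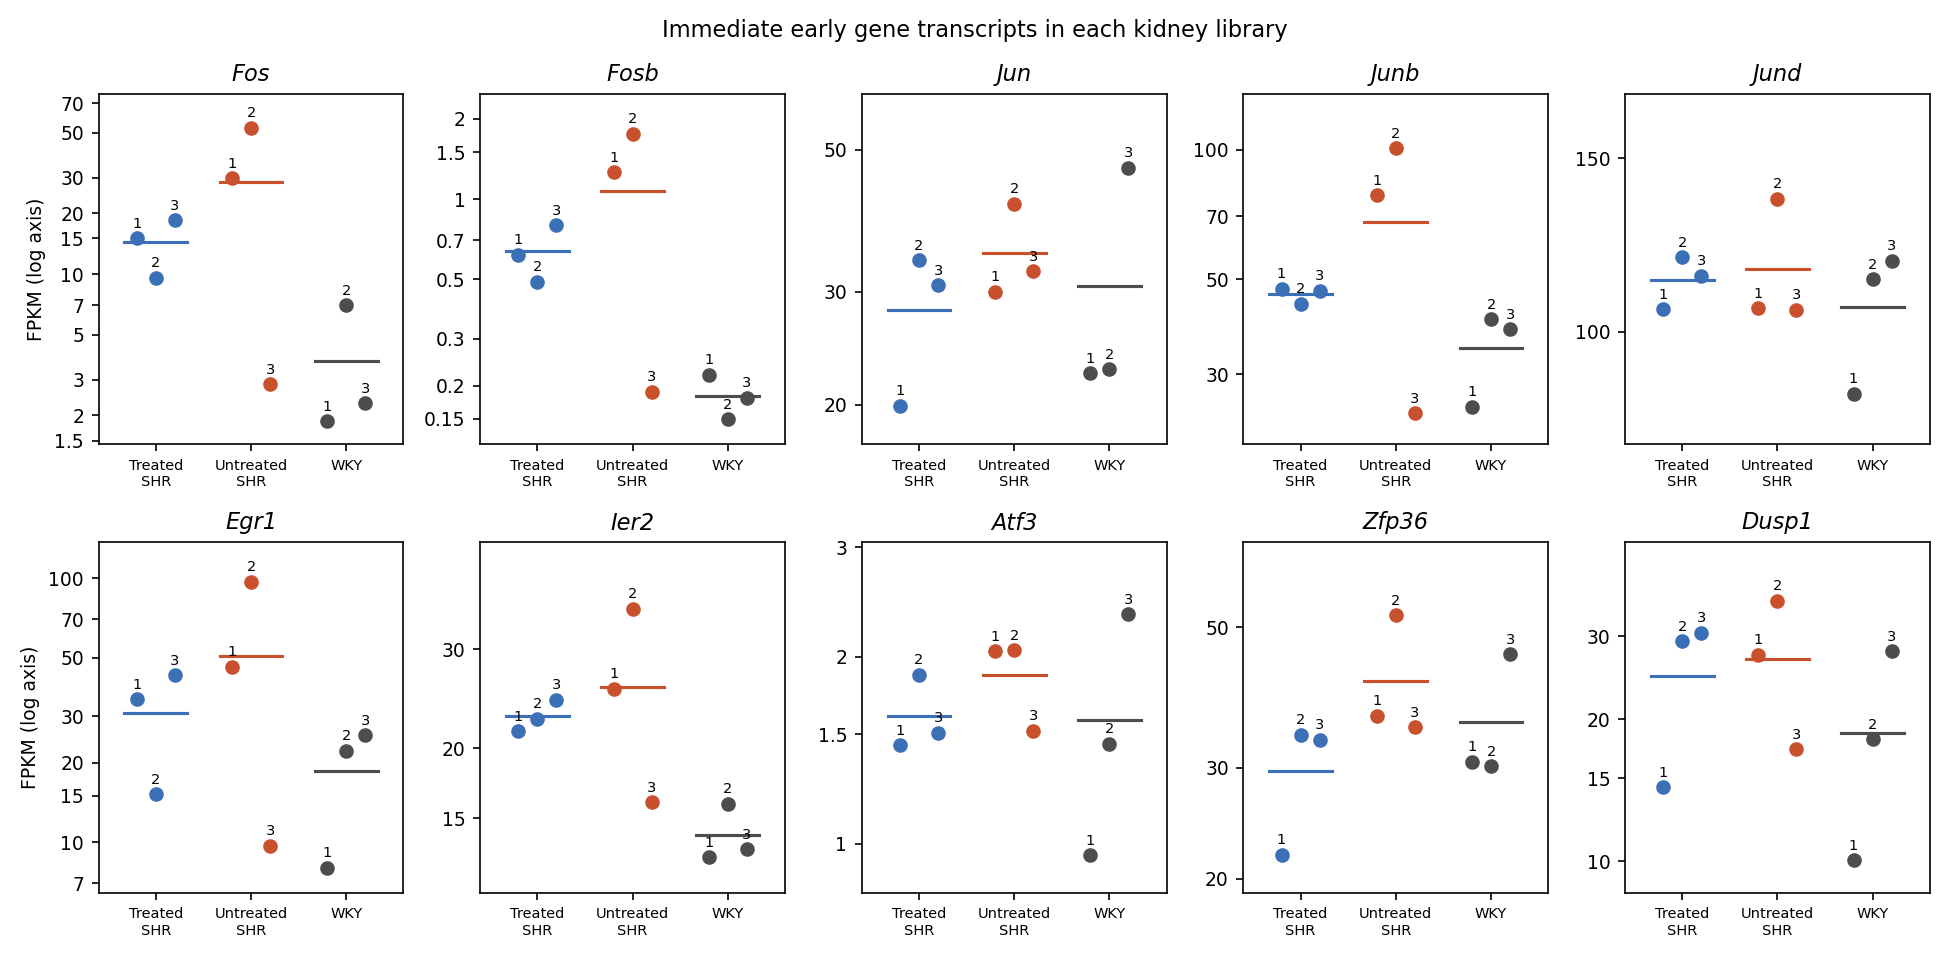
FPKM of the 10 immediate early genes on log axes, with each point a library labelled by its replicate number and each bar the group mean (n = 3 per group: treated SHR, untreated SHR, WKY). For Fos, untreated SHR libraries 1 and 2 stand at 29.9 and 52.9 FPKM and library 3 at 2.86, while the treated libraries lie between 9.58 and 18.5 and WKY between 1.87 and 7.0.

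Transcripts of the JUN genes, whose proteins partner FOS in AP-1, differed in how far they varied with Fos, most closely for Junb and least for Jun. Junb, which often restrains JUN, measured 47.4, 43.8 and 47.0 FPKM in treated SHR, 78.3, 101 and 24.4 in untreated SHR, and 25.2, 40.3 and 38.2 in WKY. The treated libraries were tightly grouped and all above WKY, and untreated SHR library 3 was the lowest of all 9. The mean was 46.1 ± 1.97 FPKM in treated SHR, 67.8 ± 39.2 in untreated SHR and 34.6 ± 8.17 in WKY (SD, n = 3 each). Junb did not pass in untreated SHR against WKY (log2 change 0.76, SE 0.44, adjusted p = 0.371 in limma; range over alternatives 0.0212 to 0.670) and passed there without untreated SHR library 3 (log2 change 1.36, adjusted p = 0.0212).

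Jun, the gene of the principal JUN protein, measured 19.9, 33.6 and 30.7 FPKM in treated SHR, 30.0, 41.2 and 32.3 in untreated SHR, and 22.4, 22.7 and 46.9 in WKY. WKY library 3 was the highest and treated library 1 the lowest, and all 3 groups overlapped. Its log2 changes were -0.31 for treated against untreated SHR (SE 0.30, adjusted p = 0.628 in limma) and 0.24 for untreated SHR against WKY (SE 0.30, adjusted p = 0.671).

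Jund, a JUN gene that is expressed constantly in many tissues, had the most abundant transcript of the set per length. It measured 105, 119 and 114 FPKM in treated SHR, 106, 136 and 105 in untreated SHR, and 86.5, 113 and 118 in WKY. Its highest library had 1.58 times the level of its lowest, the smallest such ratio of the 10 genes. The log2 change of treated against untreated SHR was -0.03 (SE 0.14, adjusted p = 0.941 in limma), and the exact permutation test over the 3 groups gave p = 0.711.

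Egr1, a zinc finger transcription factor induced by growth factors, followed the pattern of Fos in part. Egr1 measured 34.8, 15.2 and 42.9 FPKM in treated SHR, 46.3, 96.9 and 9.72 in untreated SHR, and 8.02, 22.3 and 25.5 in WKY. All 3 groups overlapped, and untreated SHR spanned nearly the whole range seen, with library 2 the highest of all 9 and library 3 the lowest but for WKY library 1. The mean was 31.0 ± 14.2 FPKM in treated SHR, 51.0 ± 43.8 in untreated SHR and 18.6 ± 9.29 in WKY (SD, n = 3 each). The log2 change of untreated SHR against WKY was 1.05 (SE 0.78, adjusted p = 0.472 in limma), and that of treated against untreated SHR was -0.32 (SE 0.78, adjusted p = 0.861 in limma).

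Ier2, the gene of a nuclear protein of the early growth response, lay above WKY in both SHR groups, which overlapped each other. It measured 21.4, 22.6 and 24.4 FPKM in treated SHR, 25.5, 35.4 and 16.0 in untreated SHR, and 12.8, 15.9 and 13.2 in WKY. Every SHR library, treated or untreated, lay above every WKY library, although untreated SHR library 3 did so narrowly, at 16.01 against 15.92 FPKM in WKY library 2. Over all genes tested, treated SHR lay wholly above WKY for 28.2% and untreated SHR for 20.3%. The mean was 22.8 ± 1.48 FPKM in treated SHR, 25.7 ± 9.72 in untreated SHR and 14.0 ± 1.70 in WKY (SD, n = 3 each).

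The log2 change of Ier2 was 0.67 for treated SHR against WKY (SE 0.23, adjusted p = 0.0667 in limma; range over alternatives 0.0012 to 0.183) and 0.77 for untreated SHR against WKY (SE 0.23, adjusted p = 0.134; range 0.0066 to 0.344). It did not pass in either, nor in the F-test over the 3 groups (adjusted p = 0.0906 in limma), and the exact permutation test over the 3 groups gave p = 0.0643, where the smallest possible p is 0.00357. Treated against untreated SHR differed by -0.10 (SE 0.23, adjusted p = 0.860 in limma). Without untreated SHR library 3, Ier2 passed in untreated SHR against WKY (log2 change 1.06, adjusted p = 0.0196) and in treated SHR against WKY (0.67, adjusted p = 0.0219), and without untreated SHR library 2 it passed in treated SHR against WKY (0.67, adjusted p = 0.0353). It also passed with array weights in both comparisons against WKY and, when only the 2 groups were fitted, in treated SHR against WKY (adjusted p = 0.0265 in limma). Array weights called 29.8% of all genes in untreated SHR against WKY and 67.1% in treated SHR against WKY.

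Atf3, a stress-induced factor of the same leucine zipper class, was expressed near the filter in every group. It measured 1.44, 1.87 and 1.51 FPKM in treated SHR, 2.04, 2.05 and 1.52 in untreated SHR, and 0.96, 1.45 and 2.34 in WKY. WKY held both its lowest and its highest library, so the untreated SHR and treated SHR values lay inside the WKY range. No comparison passed (adjusted p = 0.758, 0.882 and 0.619 in limma for treated against untreated SHR, treated SHR against WKY and untreated SHR against WKY).

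Of the genes that end the response, Zfp36, also known as tristetraprolin, was the only 1 of the 9 tested genes whose treated and untreated SHR libraries did not overlap. Over all genes tested, treated SHR lay wholly below untreated SHR for 6.44% and wholly above for 12.6%. It measured 21.8, 33.8 and 33.2 FPKM in treated SHR, 36.3, 52.3 and 34.7 in untreated SHR, and 30.7, 30.2 and 45.4 in WKY. Treated libraries 2 and 3 lay just under the lowest untreated SHR library. The mean was 29.6 ± 6.74 FPKM in treated SHR, 41.1 ± 9.73 in untreated SHR and 35.4 ± 8.66 in WKY (SD, n = 3 each), and the log2 change of treated against untreated SHR did not pass at -0.46 (SE 0.23, adjusted p = 0.361 in limma). Against WKY the treated group differed by -0.25 (adjusted p = 0.435 in limma), which passed with array weights alone (-0.36, adjusted p = 0.0415). Array weights called 67.1% of all genes in that comparison.

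Dusp1, a phosphatase that inactivates MAP kinases, measured 14.3, 29.3 and 30.5 FPKM in treated SHR, 27.4, 35.7 and 17.3 in untreated SHR, and 10.0, 18.2 and 27.9 in WKY. Treated library 1 and WKY library 1 were the lowest, and all 3 groups overlapped. No comparison passed (adjusted p = 0.899, 0.467 and 0.480 in limma for treated against untreated SHR, treated SHR against WKY and untreated SHR against WKY).

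Across the set, 0 of the 9 tested genes were called at an adjusted p of 0.05 in any of the 3 comparisons or in the F-test (limma). For treated against untreated SHR, 0 of the 9 had an unadjusted p under 0.05, where 15.2% of the 13127 genes tested did and 0% were called. For treated SHR against WKY, 1 of the 9 (Ier2) had an unadjusted p under 0.05, where 40.2% of all genes did and 22.9% were called (16.8% higher and 6.09% lower). For untreated SHR against WKY, 2 of the 9 (Fos and Ier2) had an unadjusted p under 0.05, where 19.5% of all genes did and 2.96% were called (1.84% higher and 1.12% lower). Over all genes, calls were 2211 higher and 799 lower in treated SHR against WKY (1448 and 1222 under median-of-ratios scaling) and 241 higher and 147 lower in untreated SHR against WKY (221 and 207 under that scaling). In the F-test, 1 of the 9 (Ier2) did, where 33.1% of all genes did and 10.6% were called.

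Counts of genes whose groups did not overlap were read against the same count over all genes. Treated SHR lay wholly above WKY for 3 of the 9 tested genes (Fos, Junb and Ier2), and this held for 28.2% of all genes tested. Untreated SHR lay wholly above WKY for 1 of the 9 (Ier2), against 20.3% of all genes. Treated SHR lay wholly below untreated SHR for 1 of the 9 (Zfp36), against 6.44% of all genes. In the opposite directions there were 0 of the 9, against 12.6% of all genes with treated wholly above untreated SHR, 10.4% with treated SHR wholly below WKY and 8.11% with untreated SHR wholly below WKY.

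The mean log2 level of all 10 genes was lower in treated than in untreated SHR as deposited, with Jund at a positive 0.01 under quantile normalization. For part of the set that direction depended on single libraries. Without untreated SHR library 2, 6 of the 9 tested genes had a positive log2 change, none of them called. They were Fos (0.45), Egr1 (0.38), Ier2 (0.16), Dusp1 (0.10), Jund (0.10) and Junb (0.07). Fos also turned positive without untreated SHR library 1 (0.05), Egr1 without treated library 2 (0.11), and Dusp1 (0.21) and Jund (0.02) without treated library 1. Jun, Atf3 and Zfp36 stayed negative whichever library was left out. The mean of all 10 was higher in untreated SHR than in WKY as deposited, and that of the 9 tested genes also under median-of-ratios scaling and quantile normalization. Without WKY library 1, Jund (-0.008) and Atf3 (-0.001) turned negative there, and with array weights Jun, Jund, Atf3 and Zfp36 did. Both comparisons share the untreated SHR libraries, among which library 2 held the highest value of 8 of the 10 genes. The median log2 change of the 9 tested genes was -0.31 for treated against untreated SHR, where all genes tested had 0.04, and 0.55 for untreated SHR against WKY, where all genes had 0.07. For treated SHR against WKY the median was 0.42, where all genes had 0.11, and 8 of the 10 genes had a higher mean, with Jund at -0.04 and Atf3 at -0.04 under median-of-ratios scaling and Atf3 at -0.06 under quantile normalization. Median-of-ratios scaling moved the median of all genes in treated SHR against WKY to -0.01.

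**Figure D2:**
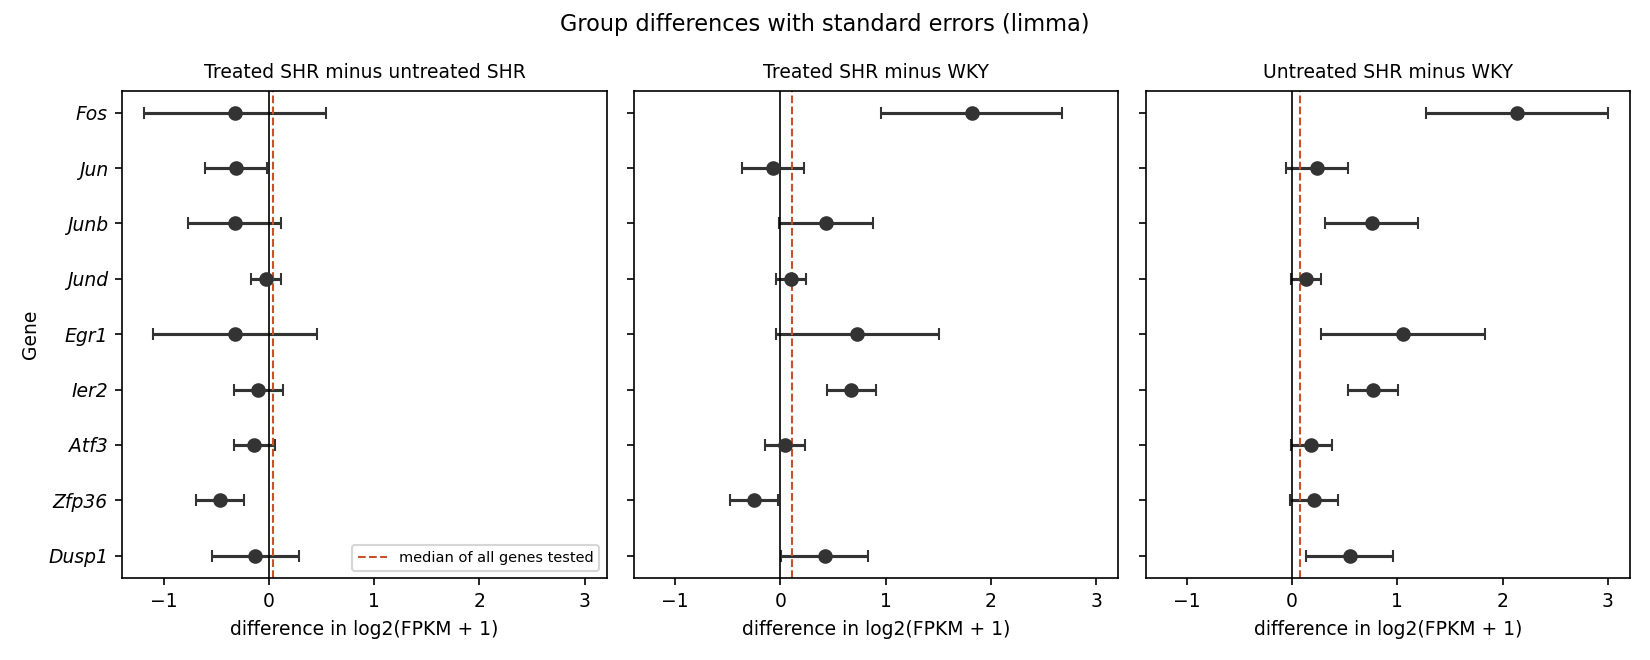
Differences in log2(FPKM + 1) between groups for the 9 tested immediate early genes, with points the limma estimate and bars its SE, and the dashed line the median of all genes tested (n = 3 libraries per group). Fos has the largest estimates against WKY, 1.82 for treated and 2.14 for untreated SHR, with an SE of 0.86 each.

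The spread between libraries of 1 group was wide for part of the set. The pooled within-group SD of log2(FPKM + 1) was 1.27 for Fos, 1.15 for Egr1, 0.65 for Junb and 0.60 for Dusp1, while the median of all genes tested was 0.15. Only 0.213% of the genes tested had a larger SD than Fos, and 0.328% a larger SD than Egr1. Among the 2785 tested genes with a mean level within 0.5 log2 units of that of Fos, 0.144% had a larger SD. Junb was exceeded by 2.03% of genes and Dusp1 by 2.57%. At the other end Jund, with an SD of 0.19, was exceeded by 37.3%, and Atf3, with 0.25, by 24.6%.

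This spread was not even over the groups. The highest untreated SHR library had 18.5 times the Fos level of the lowest, against 1.93 times within treated SHR and 3.74 times within WKY. For Egr1 the ratio was 2.83 within treated SHR, 9.97 within untreated SHR and 3.18 within WKY, and for Junb it was 1.08, 4.13 and 1.60 in the same order. For Jun and Atf3 the ratio was widest within WKY, at 2.10 and 2.44. Whether the spread itself differed between groups was not tested.

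**Figure D3:**
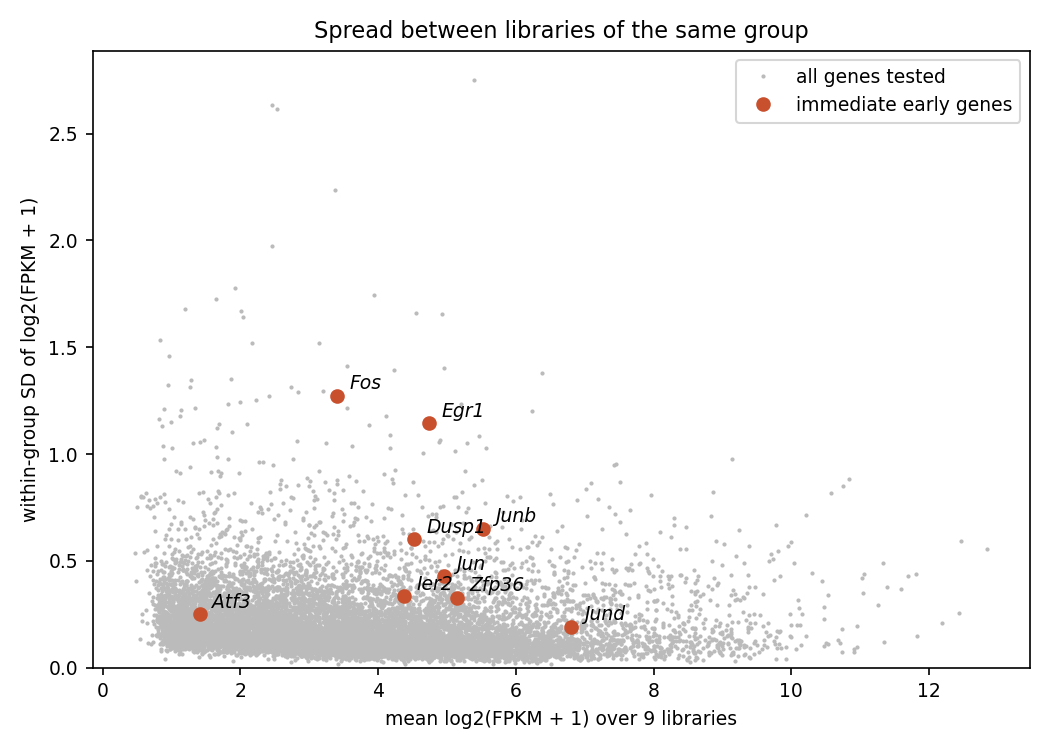
Pooled within-group SD of log2(FPKM + 1) against mean log2(FPKM + 1) over 9 libraries, with each grey point 1 of the 13127 genes tested and each labelled point an immediate early gene. Fos at 1.27 and Egr1 at 1.15 stand near the top of the range for their level, and Jund at 0.19 and Atf3 at 0.25 lie within the main cloud.

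The genes formed patterns that the group labels did not define. Across the 9 libraries the levels of Fos and Ier2 gave Pearson's r = 0.97 and Spearman's rho = 0.97, those of Fos and Fosb r = 0.94 (rho 0.85), those of Fos and Junb r = 0.93 (rho 0.93), and those of Fos and Egr1 r = 0.88 (rho 0.88). Jun and Zfp36 went together at r = 0.90 (rho 0.85) and Jun and Atf3 at r = 0.81 (rho 0.88), while Fos and Jun gave r = 0.09 (rho 0.08). Dusp1 and Jund, at r = 0.86 (rho 0.92), sat between, with r = 0.60 and 0.57 to Fos and 0.77 and 0.66 to Jun. As deviations from the group means, which carry no group difference, the values were 0.95 for Fos and Ier2, 0.95 for Fos and Junb, 0.93 for Jun and Zfp36 and -0.01 for Fos and Jun. These values describe the same 9 libraries, all genes share each library's scaling, and no test was made.

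**Figure D4:**
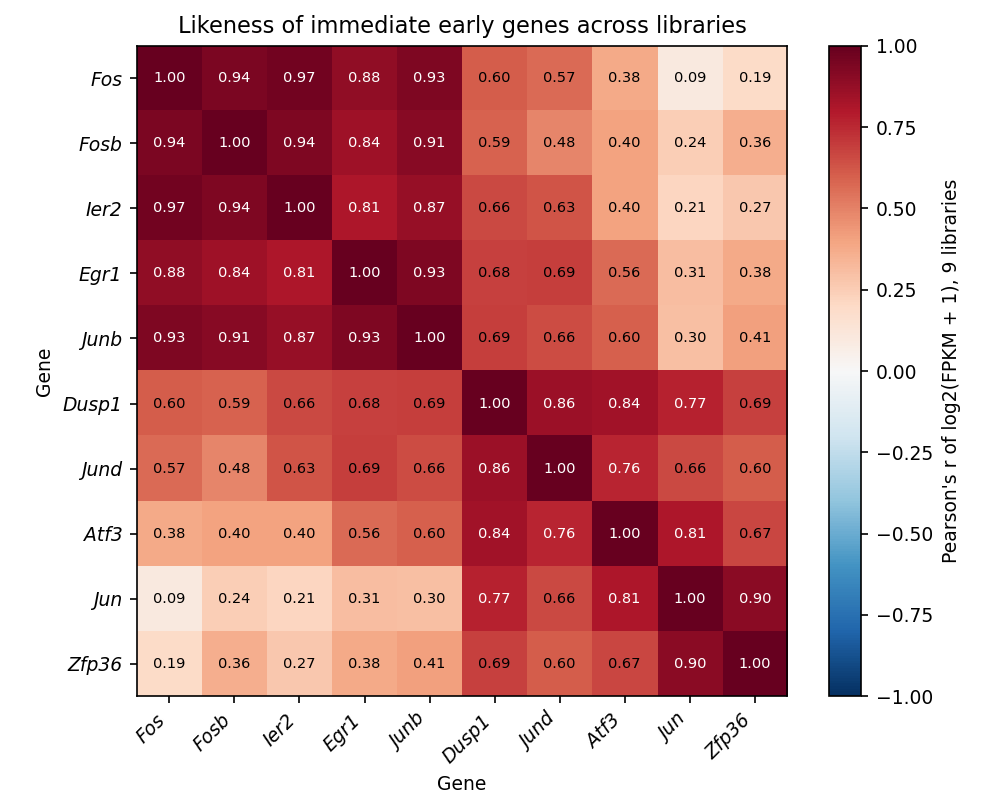
Pearson's r of log2(FPKM + 1) over 9 libraries for each pair of the 10 immediate early genes, with the colour scale from -1 to 1. Fos, Fosb, Ier2, Egr1 and Junb form a block of high values, such as 0.97 for Fos and Ier2, and Jun and Zfp36 reach 0.90 with each other while Fos and Jun stand at 0.09.

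The mean z-score of the 9 tested genes summarised each library. It was -0.45, 0.20 and 0.29 in treated SHR libraries 1 to 3, 0.55, 1.48 and -0.57 in untreated SHR, and -1.38, -0.40 and 0.28 in WKY. Untreated SHR library 2 was highest and WKY library 1 lowest, and all 3 groups overlapped. Among genes outside the set, those most like this score over the 9 libraries included Lrrc8c, a subunit of volume-regulated anion channels (r = 0.93, rho 0.93), Shank2, a scaffold protein (r = 0.93, rho 0.95), Rabl2 (r = 0.92, rho 0.78), Ubp1 (r = 0.90, rho 0.77), Plekhj1 (r = 0.90, rho 0.95), Ppp1r1a, an inhibitor of protein phosphatase 1 (r = 0.90, rho 0.90) and Zbed5 (r = 0.88, rho 0.90). Their ranges were narrower than that of Fos: Lrrc8c measured 1.17, 1.47 and 1.40 FPKM in treated SHR, 1.86, 1.78 and 0.96 in untreated SHR, and 0.78, 1.19 and 1.40 in WKY. Among those most opposed to it were Ccdc181, Birc3, Ctr9, Wasf3, Abcb6, Elmod3 and Pus7, at r = -0.89 to -0.87. Both sets of genes were picked as the extremes of r among the tested genes over only 9 libraries. Large r values come in part from that choice, and no test was made.

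**Figure D5:**
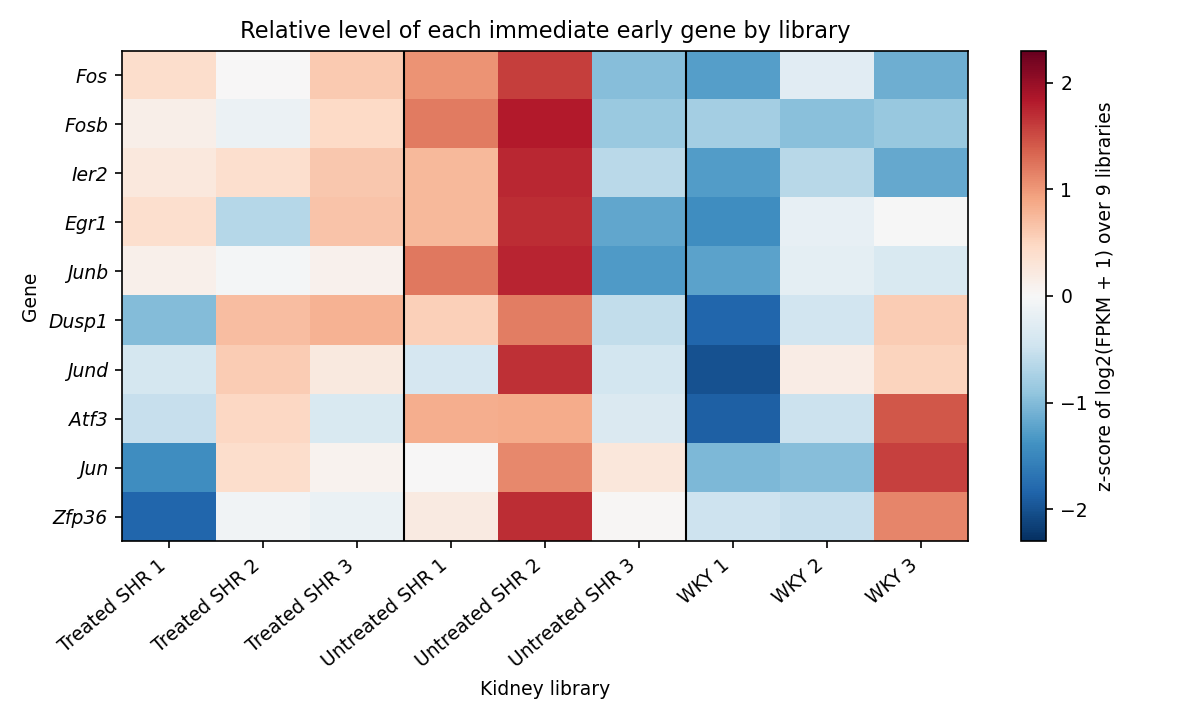
z-score of log2(FPKM + 1) over 9 libraries for the 10 immediate early genes, with 1 column per library in the order treated SHR, untreated SHR and WKY. Untreated SHR library 2 is high in nearly every row, untreated SHR library 3 is low for Fos, Fosb, Ier2, Egr1 and Junb, and WKY library 3 is high for Jun, Atf3 and Zfp36.

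Levels of kidney cell markers also differed between these libraries, and their part in the values above and below was not tested. The 5 thick ascending limb markers summed to 3351, 1839 and 2865 FPKM in treated SHR, 4490, 5415 and 2625 in untreated SHR, and 2679, 3199 and 4035 in WKY. Of these 5, 4 had lower means in treated than in untreated SHR and 3 had higher means in untreated SHR than in WKY. The 5 smooth muscle and pericyte markers summed to 50.7 to 73.6 FPKM in treated SHR, 60.7 to 79.0 in untreated SHR and 38.6 to 55.5 in WKY, and the 7 leukocyte markers to 12.6 to 16.5, 12.9 to 20.2 and 12.3 to 21.8 FPKM in the same order. Against the mean z-score of the set, mean log2 marker levels gave r = 0.54 for smooth muscle and pericyte, 0.41 for thick ascending limb and 0.18 for leukocyte. The other lists lay between -0.125 (proximal tubule) and 0.39 (endothelial and red blood cell), and no test was made. No marker of these lists was at 0 in all libraries. In treated SHR against WKY, 5 of 5 principal cell, 5 of 5 intercalated and 3 of 3 tested distal convoluted tubule markers were called higher. Of 10 proximal tubule markers, 1 was called lower, as was 1 of 6 endothelial markers, and 1 of 5 podocyte markers was called higher. Thick ascending limb and fibroblast markers each had 1 called higher and 1 lower, of 5 and 4 tested.

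Related genes of the pathway were read from lists of AP-1, EGR and other rapid response genes. Nr4a1, an orphan nuclear receptor of the immediate early class, was chosen after its values were seen: it measured 8.11, 13.8 and 17.1 FPKM in treated SHR, 24.9, 42.6 and 7.87 in untreated SHR, and 2.28, 10.1 and 4.54 in WKY. Btg2, an antiproliferative early gene chosen in the same way, measured 23.6, 31.1 and 34.7 FPKM in treated SHR, 49.3, 56.1 and 19.1 in untreated SHR, and 9.12, 18.5 and 14.3 in WKY. In both, untreated SHR libraries 1 and 2 were the highest of all 9 and library 3 was the lowest of its group. Neither passed (smallest adjusted p = 0.154 for Nr4a1 and 0.0752 for Btg2 in limma).

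Of 8 tested AP-1 relatives, 0 passed in any comparison (limma), and Mafg (unadjusted p = 0.0529, adjusted p = 0.332) and Atf7 (unadjusted p = 0.144, adjusted p = 0.446) had the smallest p, both in treated against untreated SHR. The same held for 7 dual specificity phosphatases, led by Dusp7 (unadjusted p = 0.127, adjusted p = 0.377) and Dusp16 (unadjusted p = 0.289, adjusted p = 0.549) in untreated SHR against WKY. Of 6 ZFP36 relatives and decay factors, 0 passed, with Elavl1, a stabiliser of AU-rich messages, at an unadjusted p of 0.0165 (adjusted p = 0.285, treated against untreated SHR) and Hnrnpd at 0.0251 (adjusted p = 0.195, untreated SHR against WKY). Egr2, Egr3 and Egr4, the other EGR genes, lay at or below 0.36 FPKM in every library and were not tested.

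The EGR corepressor gene Nab2, which EGR1 itself is known to induce, rose in both SHR groups. It measured 16.8 ± 1.45 FPKM in treated SHR, 15.4 ± 0.870 in untreated SHR and 9.70 ± 2.06 in WKY (SD, n = 3 each), with a log2 change of 0.75 for treated SHR against WKY (SE 0.13, adjusted p = 0.0100 in limma) and 0.63 for untreated SHR against WKY (SE 0.13, adjusted p = 0.0412 in limma). Its call in untreated SHR against WKY was lost without WKY library 1 or 3, without any 1 of the untreated SHR libraries, or without treated library 2. Its relative Nab1 rose in treated SHR against WKY, at 14.1 ± 1.78 against 10.5 ± 1.07 FPKM, and that call was lost without any 1 library other than treated library 1.

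Among 27 other rapid response genes, 2 rose and 0 fell in untreated SHR against WKY, and 7 rose and 1 fell in treated SHR against WKY, with medians of 0.40 and 0.38 on the log2 scale where all genes had 0.07 and 0.11. Of all genes tested, 2.96% were called in untreated SHR against WKY and 22.9% in treated SHR against WKY. Arc, a cytoskeletal early gene best known from neurons, measured 6.58 ± 2.17 FPKM in treated SHR, 6.11 ± 0.949 in untreated SHR and 2.19 ± 0.484 in WKY (SD, n = 3 each) and rose in both comparisons (log2 change 1.22, adjusted p = 0.00901, and 1.16, adjusted p = 0.0211, in limma). Its call in untreated SHR against WKY was lost without WKY library 1 or 3 or any 1 untreated SHR library. Ier5l rose in both as well, at 5.79 ± 0.505, 6.20 ± 0.344 and 4.23 ± 0.165 FPKM in treated SHR, untreated SHR and WKY. Its calls were lost without 4 and 7 of the 9 libraries in turn.

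The others rose in treated SHR against WKY alone by this threshold, and whether they differed from untreated SHR is not shown by it. Ier3, an early survival gene, measured 94.0 ± 41.0 FPKM in treated SHR, 70.0 ± 8.75 in untreated SHR and 32.0 ± 4.76 in WKY (log2 change against WKY 1.44, adjusted p = 0.0132 in limma). Btg1 measured 155 ± 29.2 FPKM in treated SHR and 94.4 ± 11.5 in WKY, Ccn2, also known as connective tissue growth factor, 64.2 ± 22.8 and 26.4 ± 10.1, Gadd45b 7.56 ± 2.25 and 3.68 ± 0.706, and Ppp1r15a 15.8 ± 1.90 and 11.3 ± 0.898. In untreated SHR the means were 106 ± 7.86 FPKM for Btg1, 55.9 ± 8.11 for Ccn2, 5.93 ± 1.84 for Gadd45b and 15.3 ± 2.54 for Ppp1r15a. The chemokine gene Ccl2 fell, at 0.710 ± 0.295 FPKM in treated SHR, with 1.69 ± 0.652 in untreated SHR and 1.79 ± 0.127 in WKY. Of 9 NR4A, KLF and MYC factors, 2 rose in treated SHR against WKY: Klf2, at 26.4 ± 10.4 and 12.1 ± 3.62 FPKM, and Klf10, at 9.63 ± 1.57 and 6.43 ± 1.0. Untreated SHR had 27.4 ± 5.10 FPKM of Klf2, above the treated mean, and 7.37 ± 0.755 of Klf10.

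Upstream of the set, 2 of 9 regulators of the SRF and CREB class rose in treated SHR against WKY. They were Srf, the factor that binds CArG boxes, at 12.7 ± 0.927 against 9.93 ± 1.35 FPKM, and its coactivator gene Mrtfa, at 10.1 ± 1.37 against 7.27 ± 0.934. Of 14 MAP kinases and upstream kinases, Map2k7, an activator of JNK, rose, at 15.8 ± 0.855 against 12.2 ± 1.12 FPKM. Of 7 heat shock genes, Hspb1 (41.1 ± 9.54 against 19.4 ± 3.67) and Hsph1 (31.9 ± 1.27 against 25.2 ± 2.43) rose. Of 10 genes listed here as AP-1 targets, a listing that was not tested, 5 rose: Lgals3, galectin 3 (39.5 ± 8.23 against 17.0 ± 4.02), Spp1, osteopontin (301 ± 94.5 against 131 ± 28.6), Hmox1, haem oxygenase 1 (8.32 ± 2.40 against 3.36 ± 1.29), Plaur (2.33 ± 0.609 against 1.16 ± 0.397) and Trib3 (1.74 ± 0.567 against 0.733 ± 0.139). In untreated SHR the mean was above the treated mean for Srf (13.7 ± 0.491), Hmox1 (8.88 ± 2.13) and Plaur (2.42 ± 0.135). It lay between the treated and WKY means for Mrtfa (8.94 ± 0.817), Map2k7 (13.8 ± 0.953), Hspb1 (35.5 ± 4.87), Hsph1 (31.5 ± 0.941), Lgals3 (29.4 ± 4.58), Spp1 (172 ± 11.8) and Trib3 (0.763 ± 0.115). Against these counts stand 22.9% of all genes called in the same comparison, and of the 22 related genes called there 4 kept the call whichever library was left out (Arc, Hspb1, Lgals3 and Nab2). The call was lost without WKY library 1 for Ier3, without WKY library 1 or treated library 3 for Hmox1, without WKY library 3 or treated library 2 for Spp1, and without WKY library 3 or treated library 2 or 3 for Hsph1. For Btg1, Ccn2, Ier5l, Map2k7 and Trib3 it was lost without WKY library 1 or 3 or treated library 2 or 3, and for Gadd45b and Klf10 also without untreated SHR library 1. Klf2 and Mrtfa lost it without any 1 library other than WKY library 2 and treated library 1, Srf and Plaur without any 1 other than treated library 1, Ccl2 without any 1 other than untreated SHR libraries 1 and 3, and Ppp1r15a without any 1 other than untreated SHR libraries 1 and 2 and treated library 1. In treated against untreated SHR, 0 of these genes were called.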

How the data were processed

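RNA from kidney of 3 treated SHR, 3 untreated SHR and 3 WKY libraries was read on a BGISEQ-500 sequencer, 50 bases from 1 end, per the labels' protocols. Per the submitters' processing notes, HISAT2 2.0.4, Bowtie2 2.2.5 and the build Rnor_6.0 were used, with no role stated; for the annotation and the counting program, the name is not given in the sources used here. The deposited values are FPKM computed by the authors, per the file headers, 1 column per library, and depth in reads is unknown.

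Values were analysed as log2(FPKM + 1), so changes of weakly expressed genes are understated. Genes with FPKM of at least 1 in at least 3 libraries (13127) were fitted in limma 3.58.1 (R 4.3.3) with a group-means model of all 9 libraries (6 residual degrees of freedom), a variance trend and Benjamini-Hochberg adjustment over all of them, two-sided, with calls at an adjusted p of 0.05. Single genes also had an exact permutation test of the between-group sum of squares over 1680 assignments, for 10 genes, unadjusted. Exact tests of 3 against 3 libraries cannot go below p = 0.1 and are not quoted. Related genes were named where called, or as the 2 smallest p of a list with no call, and likeness as the 8 highest and 8 lowest r with the mean z-score, of which 1 on each side is not reported here. The members and lists were chosen with earlier results of these data known. Fits were also run on simulated data, drawn with independent noise for each gene and library. Shifts shared by many genes of a library were not simulated, so that run does not bear on how calls depend on single libraries. Other steps ran in Python 3.11.15 with scipy 1.17.1, pandas 2.3.3, numpy 2.4.6 and, for plots, matplotlib 3.10.9. Promoter sequences are from RefSeq, build GRCr8, which differs from the authors' build.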

Additional observations from a re-analysis of the deposited data

How the results depend on the processing

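Read depth is unknown, and 3 libraries a group limit what could pass. Of the 9 tested genes, 0 passed in treated against untreated SHR under every alternative tried. Of all genes, 27.3% were called there with array weights and 6.32% without treated library 1. In treated SHR against WKY, 2 passed when only the 2 groups were fitted, 3 with array weights (Fos, Ier2 and, lower, Zfp36), and 0 to 2 with 1 library left out. Of all genes, 7.82%, 67.1% and 4.52% to 36.5% were called in the same order. In untreated SHR against WKY, 2 passed with array weights and 0 to 3 with 1 library left out. Of all genes, 29.8% and 1.27% to 4.77% did. In the F-test, 2 passed with array weights and 0 to 3 with 1 library left out, where 66.4% and 1.36% to 28.3% of all genes did. The cause was not tested.

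Log2 changes of these genes that did not pass changed sign in places. In treated against untreated SHR, Jund was 0.006 under quantile normalization and 0.058 with array weights, and Dusp1 was 0.087 with array weights. In untreated SHR against WKY, array weights gave -0.332 for Jun, -0.018 for Jund, -0.102 for Atf3 and -0.102 for Zfp36. In treated SHR against WKY, Jund was -0.035 under median-of-ratios scaling, Atf3 was -0.038 under that scaling, -0.059 under quantile normalization and -0.151 with array weights, and Egr1 was -0.446 with array weights. With 1 library left out, treated against untreated SHR ranged from -1.453 to 0.449 for Fos, -0.932 to 0.069 for Junb, -0.091 to 0.095 for Jund, -1.211 to 0.384 for Egr1, -0.388 to 0.162 for Ier2 and -0.401 to 0.21 for Dusp1. Treated SHR against WKY ranged from -0.246 to 0.271 for Jun, -0.036 to 0.186 for Jund and -0.138 to 0.247 for Atf3, and untreated SHR against WKY from -0.008 to 0.214 for Jund and -0.001 to 0.384 for Atf3.

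Deviations of libraries with the same replicate number gave r from -0.328 to 0.456, above 0.1 in 3 of 9 pairs. Pairs with other numbers gave r from -0.532 to 0.327, above 0.1 in 9 of 18. Deviations from means of 3 libraries are tied to each other, so whether the numbers pair the libraries cannot be told from these values. With the replicate block, 0 of the 9 genes passed in each comparison, and the number of all genes called was 282 in untreated SHR against WKY, 1 in treated against untreated SHR, 2700 in treated SHR against WKY and 923 in the F-test, the last over 1.5 times below the 1398 without it. The array weights called 3911, 3590 and 8811 genes in untreated SHR against WKY, treated against untreated SHR and treated SHR against WKY. The F-test called 8716 genes with array weights and 907 without a filter on low values, and fitting only the 2 groups called 1026 in treated SHR against WKY. With 1 library left out, the genes called numbered 167 to 626 in untreated SHR against WKY, 0 to 830 in treated against untreated SHR, 593 to 4791 in treated SHR against WKY and 178 to 3718 in the F-test; each highest count came without treated library 1. The 25 calls of related genes held their direction under the alternatives run, with 172 results still past the threshold and 53 no longer past it where all libraries of a comparison were kept. Related genes that were not called had no alternatives run.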
